A study of Microtus ochrogaster with 40 samples.

Results

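A set of 10 genes for transcription factors of striatal neurons, chosen by name, was followed through single-nucleus RNA libraries from prairie vole (Microtus ochrogaster) nucleus accumbens. All 10 (Ebf1, Isl1, Foxp1, Foxp2, Tshz1, Bcl11b, Meis2, Sp9, Six3 and Zfp503) were among the 19130 genes listed in the files. The 40 libraries came from 40 animals, 1 animal per library, and each animal had spent 16 days beside a partner, called a mate if of the other sex and a peer if of its own. Of the females 11 had a mate and 8 a peer, and of the males 11 had a mate and 10 a peer; the labels name no genotype, drug or age. The labels do not say which animals were housed together, so animals were treated as independent, and the p-values measure the spread between these animals.

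The striatum, of which the nucleus accumbens is the ventral portion, is made mostly of medium spiny neurons, GABA neurons that carry either the dopamine receptor D1 or the receptor D2. Factors made during development in the ganglionic eminences set these neurons apart from interneurons and from each other, and several stay on in the adult. Ebf1 and Isl1 are known from the D1 (direct pathway) lineage, Sp9 from the D2 (indirect pathway) lineage and from migrating interneurons, and Bcl11b (Ctip2), Foxp1, Six3 and Zfp503 (Nolz-1) from spiny neurons. Foxp2 and Tshz1 are known from a further type of spiny neuron, often called eccentric, and Meis2 from the lateral ganglionic eminence and its migrating neuroblasts. Isl1 is also a factor of cholinergic interneurons.

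After filtering, 178387 nuclei remained, between 1767 and 7666 per library (median 4549), with 2930260 to 13470423 UMIs (unique molecular identifiers, each standing for 1 captured RNA molecule) per library. Nuclei were clustered with the 10 factors left out of the genes used, and clusters were named from marker lists that hold none of the factors. The names carry "-like" in the tables and are shortened here. The D1 class held 28905 nuclei, the D2 class 28782 and the eccentric class 14957 (named from Otof, Cacng5, Pcdh8 and Col11a1). The eccentric clusters S3 and S10 also scored on the D1 marker list, with mean log2 folds of 2.10 and 1.30 against 2.56 and 2.36 on their own, and were named for the higher score, since the naming allowed for D1 markers in eccentric neurons. The 5 interneuron classes held 2272 (somatostatin), 3306 (somatostatin and parvalbumin), 1952 (led by Crabp1 and Kit), 667 (Vip or Lamp5) and 1010 (cholinergic) nuclei. The Crabp1 and Kit class scored on the parvalbumin and Vip marker lists and is drawn under those names, but neither Pvalb nor Vip was among its leading genes. Immature neurons (Dcx, Igfbpl1) and cycling immature neurons numbered 1553 and 692. The spiny neurons of the labelled tissue were thus present, and 33886 nuclei were of glutamate neurons. A further 18617 nuclei (10.4%) stayed unnamed. Libraries male mate 2 and female peer 1 stood apart: glutamate neurons made up 45.7% and 42.0% of their nuclei, and male mate 2 had a median of 656 UMIs per nucleus against 1604 for the median library, with only 1.58% of its nuclei in the D1 class. Library male peer 5 stood apart the other way, with 0.900% glutamate neurons.

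The level of a gene in a class is its share of the UMIs summed over the nuclei of that class in 1 animal, on the CPM scale, for animals with at least 20 such nuclei. The classes come from clusters of the same nuclei, so levels between classes are described without a test. Levels are compared for 1 gene at a time, because the counts are not per transcript length. In this section a gene is called high in a class at 50% or more of its highest class mean, low under 10% and intermediate in between. There were 16 classes with at least 6 animals. Of 160 combinations of gene and class, 20 were high, 41 intermediate and 99 low.

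Each spiny class carried its own combination. The D1 and D2 classes were both high in Foxp1, Bcl11b, Six3 and Zfp503. They parted in Ebf1 and Isl1, intermediate in the D1 class and low in the D2 class, and in Sp9, for which the reverse held. Meis2 was intermediate in both, and Tshz1 was graded intermediate in the D2 class only. The eccentric class was high in Foxp2, Tshz1, Bcl11b and Six3, intermediate in Foxp1, Meis2 and Sp9, and low in Ebf1, Isl1 and Zfp503. Immature neurons were high in Meis2 and Sp9, and cholinergic interneurons in Isl1 alone. The other 4 interneuron classes were high in none of the 10. Sp9 and Meis2 were graded against the immature neurons, which drop out among nuclei of at least 1000 UMIs. Then Sp9 was high in the Crabp1 and Kit class (its highest), the somatostatin class (67.8%) and the eccentric class (51.8%), and Meis2 in all 3 spiny classes (53.2% in the D1, 58.2% in the D2 and 100% in the eccentric class). Some grades over all nuclei lay near a bound. Ebf1 in the D1 class was at 13.6% of its highest class, and at 9.83% (low) when CPM was averaged over nuclei. Zfp503 in the D2 class was at 53.5%, and at 47.2% (intermediate) by that average. Tshz1 in the D2 class lay at 10.02% of its highest class, just inside the bound, and Tshz1 in the D1 class just outside at 8.94%. Tshz1 did not part these classes, with 23 of 40 animals lower in the D1 class and overlapping ranges. With nuclei thinned to 1000 UMIs, 1.38% of D1 and 1.43% of D2 nuclei had a UMI of Tshz1, against 1.46% of oligodendrocytes.

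**Figure D1:**
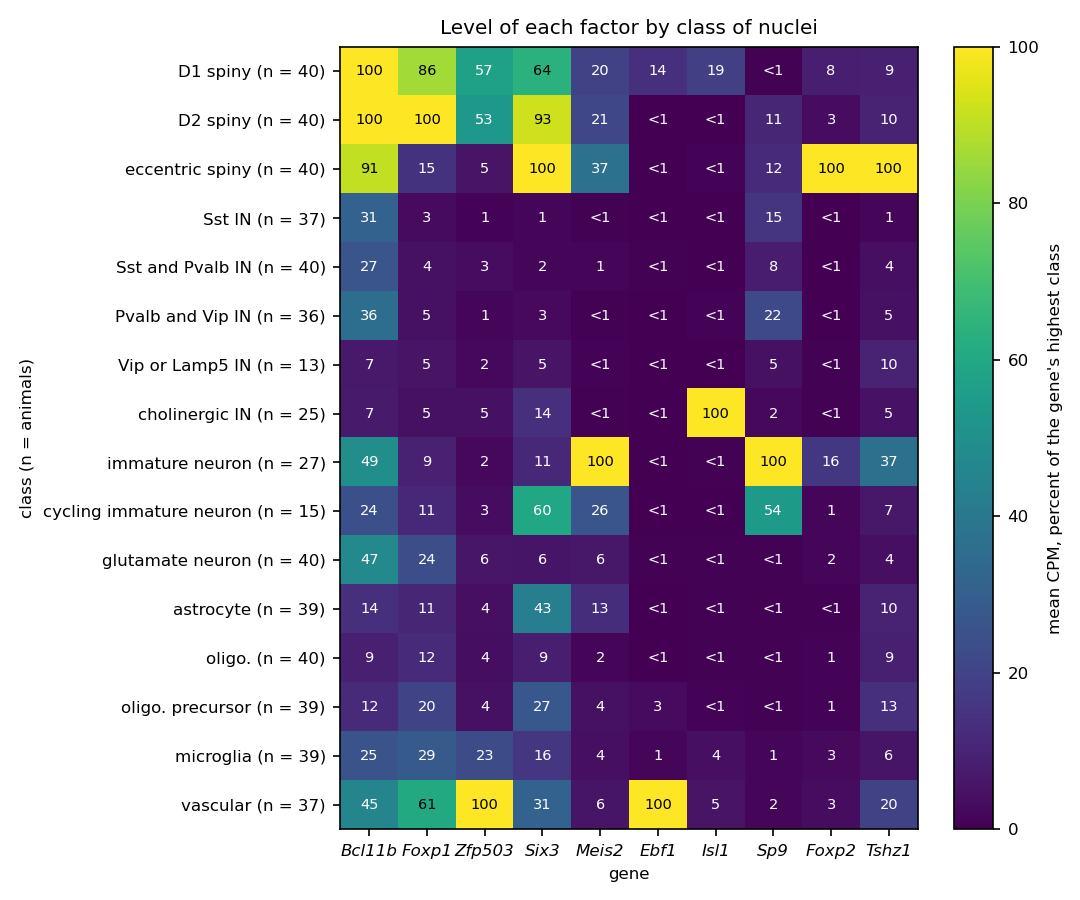
Mean level of each gene (columns) in each class of nuclei (lines, with the number of animals), as a percentage of the gene's highest class mean. The D1 and D2 classes share Foxp1, Bcl11b, Six3 and Zfp503, the eccentric class peaks for Foxp2 and Tshz1, immature neurons for Meis2 and Sp9, cholinergic interneurons for Isl1 and vascular cells for Ebf1 and Zfp503.

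Bcl11b, Foxp1, Six3 and Zfp503 were all high in the D1 and D2 classes, and 2 of the 4 were not high in the eccentric class. Bcl11b, a zinc finger factor needed for spiny neuron differentiation, had nearly the same level in the D1 class (272 ± 53.3 CPM, SD, n = 40; lowest 166.8, median 264, highest 375), the D2 class (272 ± 49.6; 171, 264 and 387) and the eccentric class (247 ± 41.9; 184, 244 and 340.5). The ranges overlapped throughout, and the level was higher in the D1 than in the D2 class in 16 of 40 animals. Foxp1, a forkhead repressor of striatal projection neurons, was at 294 ± 34.5 CPM in the D1 class (lowest 222, median 284, highest 356) and at 342 ± 42.6 in the D2 class (267, 328 and 479). In the eccentric class Foxp1 was at 49.9 ± 16.7 CPM (lowest 21.7, median 47.5, highest 104). That was close to the 41.5 ± 15.2 CPM of oligodendrocytes, with 27 of 40 animals higher in the eccentric class. With nuclei thinned to 1000 UMIs, 4.27% of eccentric nuclei and 3.68% of oligodendrocytes had a UMI of Foxp1. All 40 animals had less Foxp1 in the eccentric than in either other spiny class, with no overlap of the ranges, and 39 of 40 had less in the D1 than in the D2 class.

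Six3, a homeobox factor of the ventral forebrain, had 33.8 ± 5.80 CPM in the D1 class (lowest 22.2, median 34.4, highest 47.2), 49.1 ± 6.85 in the D2 class (32.9, 49.0 and 63.8) and 52.8 ± 12.3 in the eccentric class (26.2, 53.2 and 78.7). It was higher in the D2 than in the D1 class in 39 of 40 animals, while the D2 and eccentric classes did not separate (23 of 40 animals higher in the eccentric class). Zfp503, a zinc finger factor of the developing striatum, was at 42.5 ± 6.19 CPM in the D1 class (lowest 29.98, median 41.2, highest 60.6) and 39.8 ± 8.50 in the D2 class (23.9, 39.8 and 65.6). In the eccentric class it was at 3.95 ± 2.72 CPM, highest 10.6, with 6 animals at 0. The eccentric class was below both other spiny classes in 40 of 40 animals without overlap, whereas the D1 and D2 ranges overlapped, with 26 of 40 animals higher in the D1 class.

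Ebf1 and Isl1 separated the D1 class from the other spiny classes. Ebf1, a helix-loop-helix factor of direct pathway neurons, was at 13.9 ± 4.32 CPM in the D1 class (lowest 0, median 14.1, highest 23.8). It was at 0.286 ± 0.534 CPM in the D2 class, where 26 of 40 animals had no UMI and the highest had 2.57. The level was higher in the D1 class in 39 of 40 animals; the exception was male mate 2, at 0 in both. Isl1, a LIM homeobox factor, was at 10.7 ± 3.06 CPM in the D1 class (lowest 4.61, median 10.5, highest 19.8) and at 0.195 ± 0.464 in the D2 class, with 30 animals at 0 and a highest value of 2.57. It was higher in the D1 class in 40 of 40 animals, with no overlap of the ranges. The eccentric class resembled the D2 class here (Ebf1 0.276 ± 0.530 CPM, 31 animals at 0; Isl1 0.444 ± 0.861, 30 at 0). The D1 class held 63.0% of all Ebf1 UMIs and 65.5% of all Isl1 UMIs.

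Neither gene was restricted to spiny neurons. Cholinergic interneurons had 56.3 ± 30.8 CPM of Isl1 (n = 25; lowest 17.2, median 61.2, highest 116), above the D1 class in 25 of 25 animals although the ranges overlapped, and they held 12.0% of its UMIs. They had no UMI of Ebf1 in any of the 25 animals. Vascular cells had 102 ± 51.1 CPM of Ebf1 (n = 37; lowest 12.9, median 94.8, highest 250.2) and held 21.3% of its UMIs, so a level of Ebf1 taken over all nuclei mixes both sources.

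Sp9, a zinc finger factor of the Sp family, ran the other way within the spiny neurons. It was at 4.65 ± 3.59 CPM in the D1 class (lowest 0.828, median 4.18, highest 22.2) and at 95.8 ± 16.7 in the D2 class (65.7, 94.9 and 134), higher in the D2 class in 40 of 40 animals with no overlap. The highest D1 value belonged to male mate 2. The eccentric class had 107 ± 22.5 CPM (lowest 65.3, median 105, highest 163), a range that overlapped that of the D2 class, with 27 of 40 animals higher in the eccentric class. Of all Sp9 UMIs, 39.4% were in the D2 and 18.8% in the eccentric class.

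Foxp2 and Tshz1 marked the eccentric class. Foxp2, the forkhead factor linked to vocal and motor learning, was at 595 ± 95.2 CPM there (lowest 388, median 571, highest 757), against 49.9 ± 13.3 in the D1 class (21.8, 49.1 and 80.5) and 19.2 ± 8.61 in the D2 class (5.54, 16.7 and 46.3). The eccentric class lay above both other spiny classes in all 40 animals without overlap, and 39 of 40 animals had more Foxp2 in the D1 than in the D2 class. Tshz1, a teashirt zinc finger factor, was at 171 ± 35.9 CPM in the eccentric class (lowest 106, median 164, highest 248), 15.3 ± 5.63 in the D1 class and 17.2 ± 5.78 in the D2 class. Its ranges in the D1 (4.86 to 33.3) and D2 (7.71 to 38.2) classes overlapped each other and not that of the eccentric class. The eccentric class held 69.9% of the Foxp2 UMIs and 54.3% of the Tshz1 UMIs, from 8.38% of the nuclei.

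Meis2, a homeobox factor of the TALE family, was present in all 3 spiny classes. The eccentric class had 1098 ± 101 CPM (lowest 912, median 1096, highest 1352), the D2 class 631 ± 62.7 (513, 627 and 785) and the D1 class 575 ± 54.6 (479, 564 and 707). The eccentric class was above both in 40 of 40 animals without overlap, and the D2 class was above the D1 class in 39 of 40 animals with overlapping ranges.

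**Figure D2:**
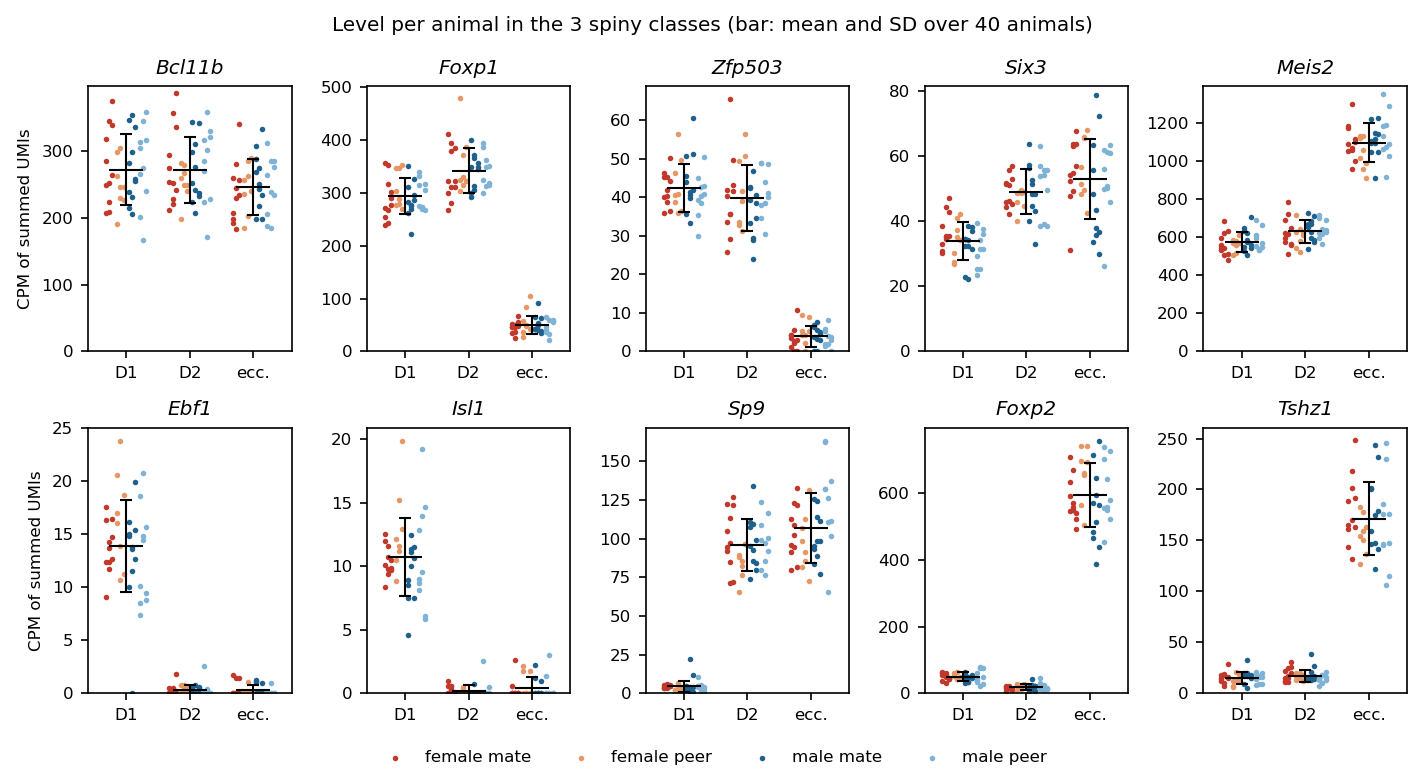
Level of each gene (CPM of summed UMIs) in the D1, D2 and eccentric classes, 1 point per animal coloured by group, with mean and SD over 40 animals. Ebf1 and Isl1 sit near 0 outside the D1 class, Sp9 near 0 within it, and Foxp2, Tshz1 and Meis2 are highest in the eccentric class; the 4 groups of animals are intermixed.

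Clusters within the spiny classes differed as well, again as a description. In the D2 class, cluster S5 (5452 nuclei, led by Cpne7, Col6a2 and the D2 receptor gene) had more Foxp1 than cluster S2 (led by Nts, Gpr6 and Adora2a) in 40 of 40 animals (453 ± 74.6 against 323 ± 53.2 CPM). Six3 was higher in S5 in 39 of 40 animals (93.7 ± 25.9 against 33.4 ± 9.27 CPM), Meis2 in 40 (828 ± 95.1 against 558 ± 60.4) and Foxp2 in 38 (48.7 ± 20.8 against 15.2 ± 9.59). S5 thus held Six3 above the mean of the whole D2 class, and its pooled Foxp2 (47.6 CPM, Poisson 95% interval 43.7 to 51.7) lay close to the D1 class mean. In the D1 class, cluster S11 (4124 nuclei, led by Reln, Pdyn and Tac1) had 92.9 ± 26.2 CPM of Foxp2 against 47.3 ± 22.7 in the largest D1 cluster, S1, and was higher in 33 of 38 animals.

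Ebf1 and Isl1 were also compared between S1 and each of the other 4 D1 clusters. Cluster S6 (5399 nuclei, led by Reln, Abi3bp and Pdyn) had more Ebf1 than S1 (21.7 ± 8.29 against 14.1 ± 6.94 CPM, 30 of 39 animals) and less Isl1 (6.93 ± 6.61 against 13.4 ± 6.24, lower in 33 of 39). Cluster S7 (5325 nuclei, led by Dlk1, Ush1c and Pdyn) had means on the same sides with more overlap, 17.5 ± 9.54 against 13.8 ± 7.2 CPM of Ebf1 (higher in 24 of 40 animals) and 8.93 ± 8.74 against 13.7 ± 6.35 of Isl1 (lower in 27 of 40). Cluster S13 (2794 nuclei, led by Slc35d3, Cartpt and Rdh10) had less Ebf1 than S1 (6.00 ± 5.15 against 14.8 ± 6.64 CPM, lower in 31 of 36), while Isl1 did not separate there (14.1 ± 8.07 against 13.3 ± 6.33, higher in 16 of 36). In S11 both were lower than in S1, Ebf1 in 25 of 38 animals (8.27 ± 6.42 against 13.9 ± 6.92 CPM) and Isl1 in 31 of 38 (8.04 ± 5.82 against 13.2 ± 6.18).

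Within the eccentric class, cluster S10 (4832 nuclei, led by Col14a1 and Shisa8) had more Meis2 than S3 in 38 of 39 animals (1436 ± 187 against 1005 ± 90.2 CPM), more Sp9 in 35 of 39 (161 ± 52.3 against 89.6 ± 19.3) and less Bcl11b in 39 of 39 (176 ± 41.6 against 267 ± 44.9). S10 was poorer than S3 in the markers of all spiny neurons, with a mean log2 fold over the median cluster of 1.12 against 3.05; a minimum of 2 on this measure was asked of D1 and D2 clusters only. S3 alone had 574 ± 94.4 CPM of Foxp2, 158 ± 32.0 of Tshz1, 53.8 ± 17.5 of Foxp1 and 3.63 ± 2.87 of Zfp503.

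**Figure D3:**
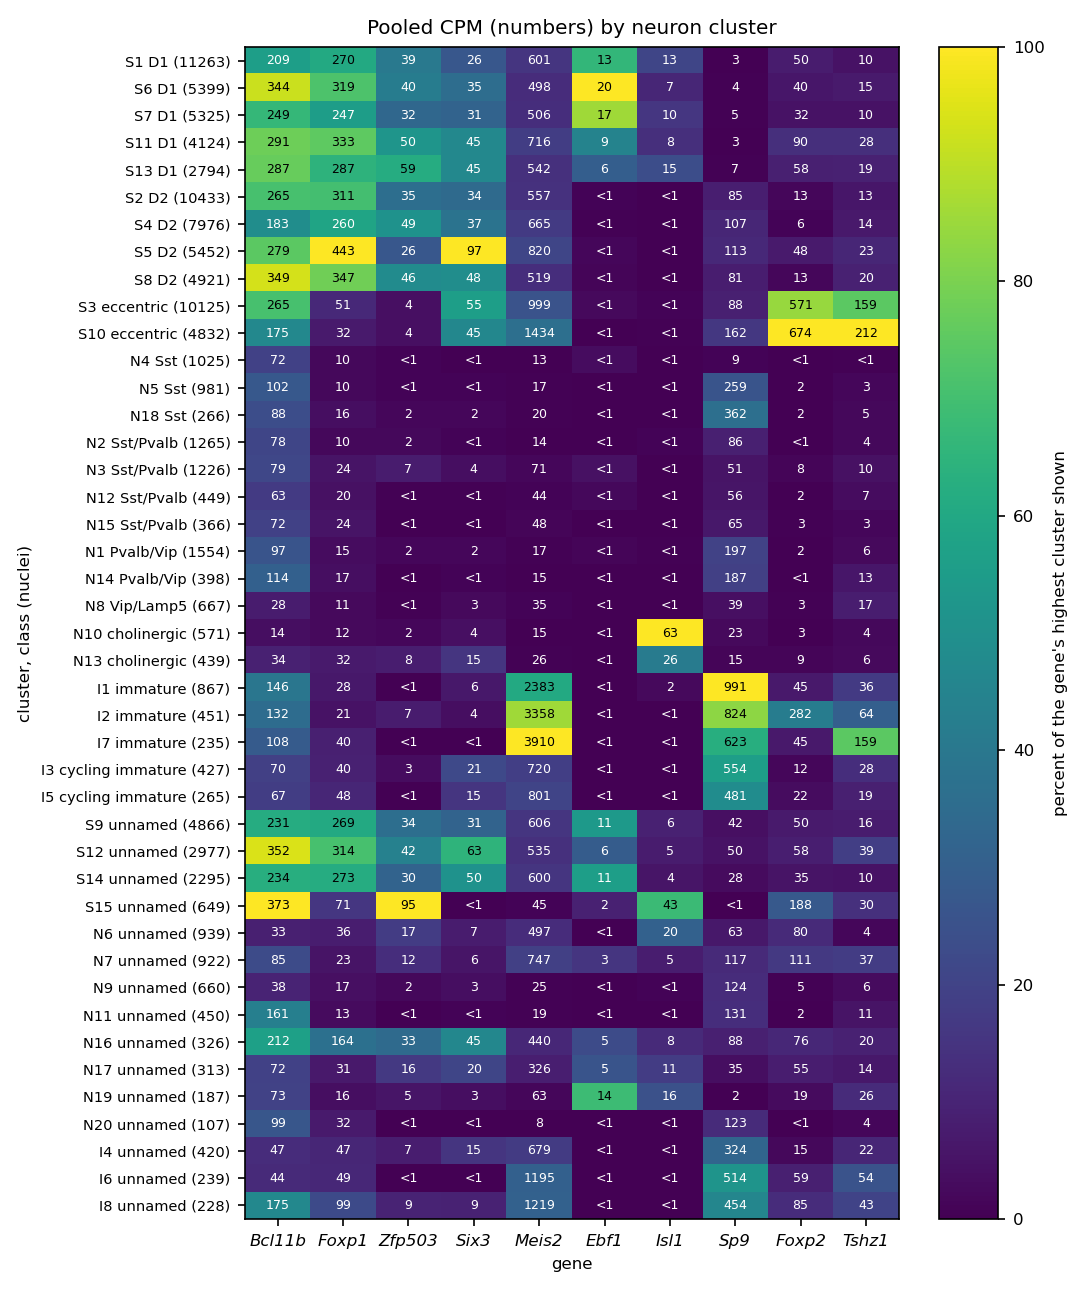
Pooled CPM (numbers) of each gene in each neuron cluster (lines, with class and number of nuclei), coloured by the percentage of the gene's highest cluster shown. S5 stands out among D2 clusters for Foxp1 and Six3, N5 and N18 among somatostatin clusters for Sp9, and I2 among immature clusters for Foxp2.

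Among interneurons, Sp9 differed widely between classes. It was at 199 ± 46.3 CPM in Crabp1 and Kit interneurons (n = 36; lowest 122, median 205, highest 306), 140 ± 54.9 in somatostatin interneurons (n = 37; 54.5, 131 and 288) and 71.3 ± 26.9 in the somatostatin and parvalbumin class (n = 40; 15.6, 74.1 and 136). Neighbours in this order overlapped: 28 of 35 animals had more in the first than in the second class, and 33 of 37 more in the second than in the last. Vip or Lamp5 interneurons had 41.3 ± 29.4 CPM (n = 13) and cholinergic interneurons 19.7 ± 19.0 (n = 25). The somatostatin class itself was split. Cluster N5 (981 nuclei, led by Sst, Nos1, Npy and Chodl) had 262 ± 51.8 CPM and cluster N4 (1025 nuclei, led by Elfn1, Sst and Grik1) 5.50 ± 10.1, higher in N5 in 16 of 16 animals. Another somatostatin cluster, N18 (266 nuclei, led by Npy, Nos1 and Crhbp), had a pooled level of 362 CPM (Poisson 95% interval 316 to 413). The somatostatin clusters with more Sp9 than N4 were thus those with Nos1 and Chodl among their leading genes.

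Bcl11b was at intermediate level in the somatostatin, the somatostatin and parvalbumin, and the Crabp1 and Kit classes, as was Sp9 in the somatostatin and the Crabp1 and Kit classes. Six3 in cholinergic interneurons was graded intermediate too, at 7.32 ± 15.7 CPM with 18 of 25 animals at 0, but its share of thinned nuclei, 0.298% of 672, was not above that of oligodendrocytes, 0.353%. Unthinned, the shares were 1.19% and 0.332%, at medians of 2212 and 667 UMIs per nucleus. Bcl11b was at 98.3 ± 37.1 CPM in Crabp1 and Kit interneurons, 85.7 ± 32.5 in somatostatin interneurons and 72.3 ± 20.0 in the somatostatin and parvalbumin class, roughly 26.5% to 36.1% of the D1 level. In Vip or Lamp5 and in cholinergic interneurons it was at 18.6 ± 16.9 and 19.2 ± 20.2 CPM. Meis2, at over 500 CPM in each spiny class, ranged from 16.3 ± 13.1 CPM in Crabp1 and Kit interneurons to 36.8 ± 31.5 in the somatostatin and parvalbumin class. Within that class it was higher in the shallow cluster N3 (76.7 ± 48.9 CPM, median 789 UMIs per nucleus) than in N2 (11.3 ± 14.3 CPM, median 2310 UMIs) in 20 of 20 animals; the part of depth in this was not tested. Foxp1 lay between 9.51 ± 7.45 and 18.0 ± 29.3 CPM in the 5 interneuron classes, and Zfp503 between 0.871 ± 2.33 and 3.44 ± 7.67.

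Immature neurons had the highest Meis2 and Sp9 of all classes. Meis2 was at 2938 ± 621 CPM (n = 27; lowest 1642, median 2878, highest 4900), above the eccentric class in 27 of 27 animals without overlap. Sp9 was at 905 ± 260 CPM (lowest 245, median 870.1, highest 1616), above each spiny class in all 27 animals. Foxp2 (96.1 ± 67.1 CPM), Tshz1 (63.4 ± 41.6) and Bcl11b (134 ± 65.3) were present as well, with animals at 0 for each. The genes of mature spiny neurons were lower: Foxp1 (30.8 ± 38.4 CPM) and Zfp503 (1.62 ± 6.89) were below the D1 class in 27 of 27 animals, and no animal had a UMI of Ebf1. The upper bound of the Poisson 95% interval for Ebf1, over all their nuclei, was 3.37 CPM.

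Cycling immature neurons had less of both leading genes, 770.5 ± 277 CPM of Meis2 and 492 ± 158 of Sp9 (n = 15), with Sp9 lower than in immature neurons in 12 of 13 animals. Six3 averaged 31.7 ± 58.2 CPM in these cells, but 10 of 15 animals had none, so its place among the high classes rests on 5 animals. Among the immature clusters, Foxp2 was concentrated in I2 (451 nuclei, led by Shisal2b and Chrna3), at 318 ± 137 CPM against 52.4 ± 33.5 in I1 (867 nuclei, led by Igfbpl1 and Chrna3) and higher in 6 of 6 animals with both. Cluster I7 (235 nuclei) had the highest pooled Meis2, 3910 CPM (Poisson 95% interval 3624 to 4213), and 159 CPM of Tshz1 (105 to 229) from 28 UMIs.

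Outside these neurons, astrocytes had 383 ± 63.8 CPM of Meis2 (n = 39), below the D1 class in 39 of 39 animals, and vascular cells had 208 ± 87.4 CPM of Foxp1 and 74.4 ± 40.5 of Zfp503 (n = 37). Zfp503 in vascular cells exceeded that in the D1 class in 29 of 37 animals with overlapping ranges. Glutamate neurons had 128 ± 33.3 CPM of Bcl11b and 81.8 ± 12.9 of Foxp1 (n = 40), both graded intermediate. Their mean Bcl11b was above that of each interneuron class, and their mean Foxp1 above that of the eccentric class.

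Per nucleus, the combinations were read from shares of nuclei with at least 1 UMI, after each nucleus had been thinned to 1000 UMIs and shallower nuclei left out. This left out 1403 of the 1553 immature nuclei. The 150 kept were the deepest, with a median of 1239.5 UMIs before thinning against 615 for the class, so their thinned shares describe those nuclei only. Oligodendrocytes, which should lack these neuron factors, served as the background for free RNA. That background was not the same in all glia. Of the 333 microglia deep enough, 22.2% had a UMI of Meis2, 3.00% of Foxp2 and 2.10% of Sp9. Unthinned, the microglia shares were 4.85%, 0.806% and 0.784% of 4717 nuclei. Meis2 was found in 42.5% of 28382 D1 nuclei, 45.3% of 27707 D2 nuclei, 64.9% of 12598 eccentric nuclei and 84.0% of 150 immature nuclei, against 3.83% of 1982 oligodendrocytes. Unthinned, the shares were 68.4%, 68.5%, 80.2% and 78.8% against 2.90%, at median depths of 2138, 1998, 1636, 615 and 667 UMIs. Foxp2 was found in 44.3% of eccentric, 4.99% of D1 and 1.63% of D2 nuclei (unthinned 60.6%, 10.3% and 3.18%), with 0.454% of oligodendrocytes (unthinned 0.282%). The thinned D2 share was above that of oligodendrocytes but below the 3.00% of microglia.

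Sp9 was found in 10.05% of eccentric, 9.21% of D2 and 0.366% of D1 nuclei (unthinned 16.6%, 18.1% and 0.934%), against 0.555% of oligodendrocytes (unthinned 0.348%). The thinned share of the D1 class was thus at the background. In immature nuclei Sp9 reached 57.3% (unthinned 43.4%), and 73 of the 150 (48.7%) held both Meis2 and Sp9. Eccentric nuclei held Foxp2 with Meis2 in 29.1% and Foxp2 with Tshz1 in 6.79%, where any Tshz1 was seen in 14.6%. Joint shares follow from the single shares even if the genes are detected independently. They were not tested against that, so no link between the genes within a nucleus is read from them. A UMI of Ebf1 was seen in 410 of 28382 D1 nuclei and of Isl1 in 325, and 1 nucleus held both. Nothing is read from that count at this sparsity. The mean number of the 10 factors seen per thinned nucleus was 1.05 in the D1, 1.14 in the D2 and 1.63 in the eccentric class, 1.66 in immature neurons, 0.233 in somatostatin interneurons and 0.126 in oligodendrocytes. Thinned microglia had 0.607, more than somatostatin interneurons.

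The D1 and D2 difference was tested on nuclei chosen without clusters. A D1 gate took nuclei with a UMI of Drd1 (DRD1A in the files) and none of Drd2, Adora2a, Gpr6 or Penk (23173 nuclei), and a D2 gate took nuclei with a UMI of Drd2, Adora2a or Gpr6 and none of Drd1, Pdyn, Chat or Slc5a7 (31214 nuclei). Nuclei with Slc17a7 or Slc17a6, the vesicular glutamate transporters, were left out of both. No factor took part in the gates. The gates were not pure: 71.4% of D1 gate nuclei were in the D1 class and 13.3% in unnamed clusters. Of the D2 gate nuclei, 79.8% were in the D2 class and 11.0% in unnamed clusters. Summed counts of the 2 gates in 40 animals were compared with edgeR's quasi-likelihood test with the animal as a block and Benjamini-Hochberg adjustment over 10723 genes. Of all genes tested, 2964 (27.6%) had an adjusted p under 0.05, 1450 (13.5%) higher and 1514 (14.1%) lower in the D1 gate. Of the 10 factors, 8 passed, 4 in each direction.

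Higher in the D1 gate were Isl1, Ebf1, Foxp2 and Tshz1. Isl1 was at 9.05 ± 3.50 CPM in the D1 gate (lowest 2.34, median 8.95, highest 20.8) and 0.279 ± 0.464 in the D2 gate (highest 2.12), with no overlap and 40 of 40 animals higher. Its log2 difference was 4.49 ± 0.19 (SE), adjusted p = 2.23e-34 by edgeR. Ebf1 was at 12.2 ± 4.44 CPM (lowest 0, median 12.0, highest 22.0) against 0.833 ± 0.961 (highest 4.22), higher in 39 of 40 animals, with a log2 difference of 3.76 ± 0.17 (edgeR adjusted p = 1.43e-32). Foxp2 was at 88.8 ± 26.2 CPM against 23.3 ± 8.17 and higher in 40 of 40 animals, a log2 difference of 2.00 ± 0.07 (edgeR adjusted p = 9.49e-42). Eccentric nuclei made up 8.53% of the D1 gate and 1.30% of the D2 gate. Without the nuclei of the eccentric, cholinergic and vascular classes, a choice made after seeing the data, the Foxp2 difference was 1.56.

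The direction of Tshz1 depended on that choice. In the gates as defined it was at 23.5 ± 7.95 CPM against 18.3 ± 5.79 and higher in the D1 gate in 33 of 40 animals (log2 difference 0.37 ± 0.06, edgeR adjusted p = 1.13e-06). Without those 3 classes the direction turned, to a log2 difference of -0.28 (edgeR adjusted p = 0.00177), so no direction is drawn for Tshz1.

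Lower in the D1 gate were Sp9, Six3, Foxp1 and Meis2. Sp9 was at 18.5 ± 5.03 CPM in the D1 gate (lowest 7.65, median 18.2, highest 26.5) and 92.7 ± 15.2 in the D2 gate (63.1, 92.6 and 126), with no overlap in 40 animals. Its log2 difference was -2.36 ± 0.06 (edgeR adjusted p = 1.07e-50). Six3 was lower in 38 of 40 animals (33.6 ± 6.75 against 48.0 ± 6.03 CPM; log2 difference -0.51 ± 0.05, edgeR adjusted p = 5.13e-15). Foxp1 was lower in 40 of 40 (260 ± 34.7 against 320 ± 37.9 CPM; -0.31 ± 0.02, edgeR adjusted p = 5.29e-25), although the ranges over animals overlapped. The Meis2 difference was small, -0.09 ± 0.02, with 32 of 40 animals lower (edgeR adjusted p = 1.78e-06); without the 3 classes it was -0.18. The Sp9 difference without them was -3.03 and that of Ebf1 5.36, so both grew.

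Bcl11b and Zfp503 did not pass. Bcl11b was at 255 ± 54.3 against 260 ± 45.9 CPM, a log2 difference of -0.04 with a 95% interval of -0.08 to -0.01 (edgeR adjusted p = 0.0652). Zfp503 was at 36.4 ± 5.37 against 39.0 ± 8.17 CPM, a log2 difference of -0.08 with an interval of -0.17 to 0.01 (edgeR adjusted p = 0.189).

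**Figure D4:**
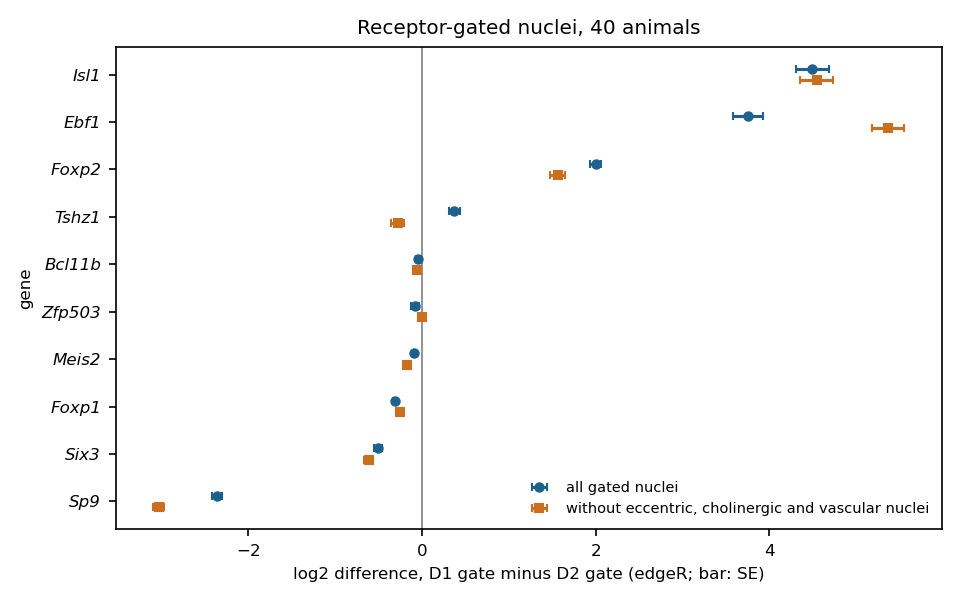
Log2 difference between the D1 and D2 gates for each gene (edgeR, 40 animals; bars are SE), with the gates as defined and without nuclei of the eccentric, cholinergic and vascular classes. Isl1, Ebf1 and Foxp2 lie to the right and Sp9, Six3 and Foxp1 to the left under both; Tshz1 changes side, from 0.37 to -0.28.

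Other developmental and striatal factors were taken from a list of 50 that holds none of the 10. The files listed 47 of them and 27 passed the filter in the gates. By edgeR, 13 were higher and 8 lower in the D1 gate, with a median absolute log2 difference of 0.30, against 0.06 for all 10723 genes and 0.44 for the 10 factors described here. Both lists were chosen with earlier results of these data known, so these medians are a description and no test of the lists. Pbx3, a TALE homeobox factor that can partner with Meis proteins, was higher by 1.15 ± 0.06 (adjusted p = 5.69e-29) and Zfp521, which interacts with Ebf1, by 1.08 ± 0.08 (adjusted p = 8.08e-20). Gli3, a mediator of hedgehog signalling, was lower (-1.29 ± 0.09, adjusted p = 2.71e-21), as was Zfhx3 (-0.48 ± 0.04, adjusted p = 7.63e-20). Lhx6, known from interneurons, was higher by 1.58 ± 0.13 (adjusted p = 1.88e-17). These 5 were chosen after their values were seen. All of these differences come from the gates as defined, which were not pure. Somatostatin interneurons made up 1.35% of the D1 gate and 0.256% of the D2 gate. Eccentric nuclei, with Pbx3 among their leading factors, made up 8.53% and 1.30%, and astrocytes 1.05% and 1.71%. The part of such nuclei in the differences of the 5 was not tested.

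By class, the retinoic acid receptor gene Rarb led the listed factors in the 3 spiny classes, ranked by the ratio to the median of the other neuron classes. It had 394 ± 44.6 CPM in the D1, 362 ± 49.9 in the D2 and 285 ± 33.7 in the eccentric class (n = 40 each). Foxo1 and Zfhx3 came next in the D1 and D2 classes, but Meis1 (77.2 ± 27.2 CPM) and Pbx3 (109 ± 23.8) in the eccentric class. Somatostatin interneurons were led by Lhx6 (320 ± 121 CPM), Sox6 and Satb1, and cholinergic interneurons by Lhx8 (781 ± 161 CPM, n = 25), Nkx2-1 and Tshz3. Immature neurons were led by Sp8, the close relative of Sp9 (153 ± 81.6 CPM, n = 27), Pbx3 (634 ± 217) and Dlx2 (861 ± 200). Among the leading factors of cycling immature neurons were Dlx1 (1474 ± 360 CPM, n = 15) and Pax6 (134 ± 83.4).

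Group differences were then tested with the animal as the unit, setting mate against peer and female against male. Over all nuclei of an animal, a lower level can come from fewer nuclei of a class or from less RNA of the gene per nucleus. Sums over all nuclei do not tell these 2 apart, so levels were also tested within classes. Over all nuclei, levels varied between animals, for instance from 29.9 to 135 CPM for Foxp2 (median 65.4) and from 94.7 to 265 for Bcl11b (median 179). Library male peer 8 was the lowest of 40 for 6 of the 10 factors. Of its nuclei, 7.59% were in the D1, 7.96% in the D2 and 3.68% in the eccentric class, and 29.9% were glutamate neurons. The part of this makeup in its low levels was not tested.

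No factor passed for pairing, sex or their interaction. Over all nuclei, edgeR called 0 of 10 for each contrast. Among the 13718 genes tested it called 0 (0%) for pairing, 3 (0.0219%) for sex and 0 (0%) for the interaction. At an unadjusted p under 0.05 there were 986 genes for pairing and 275 for the interaction, and none of the factors; DESeq2 also called 0 genes for both. Within the 12 classes that had at least 6 animals in each group, 50 pairs of a factor and a class passed the filter on low counts and edgeR called 0 of them for each contrast. Among 81262 tests over genes and classes, 0 (0%) passed for pairing, 18 (0.0222%) for sex and 0 (0%) for the interaction. At an unadjusted p under 0.05 there were 3910 pairs for pairing, 3 of them of the factors, and 2194 for the interaction, 1 of the factors. For sex there were 4238, 1 of the factors. DESeq2 called 0 pairs for pairing, 19 for sex and 0 for the interaction, none of them a factor.

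The interval of each difference gives a rough bound on what could have been missed. Intervals are normal ones, with an SE derived from the difference and its edgeR statistic, and can be narrower than the test implies. For Bcl11b in the somatostatin and parvalbumin class, the sex interval of -0.52 to -0.01 lay wholly on the negative side at an unadjusted edgeR p = 0.0622. In the D1 class the mate minus peer log2 difference of Meis2 was -0.00 with a 95% interval of -0.09 to 0.09, that of Foxp1 -0.07 (-0.17 to 0.04) and that of Bcl11b 0.05 (-0.12 to 0.22). For the sparser Isl1 and Ebf1 the intervals ran from -0.49 to 0.01 and from -0.34 to 0.16. In the D2 class Sp9 differed by 0.09 (-0.05 to 0.23) and Six3 by 0.00 (-0.14 to 0.14). On simulated counts of the D1 class, adjusted over its 10735 genes alone and so more leniently than over all classes, 83% of genes changed 1.5-fold by pairing were recovered and 8 of 10535 unchanged genes were called. The simulation changed 100 genes 1.5-fold and 100 genes 2-fold at once, which eases the adjusted threshold. A change in 1 factor alone would face a stricter one. The share covers genes of all levels, so it does not give the recovery of sparse factors such as Isl1 and Ebf1.

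The lowest p for pairing in a spiny class was that of Foxp2 in the eccentric class. Its level was between 492 and 709 CPM in female mate animals (median 557), 504 and 741 in female peer (median 676), 388 and 757 in male mate (median 565) and 452 and 737 in male peer animals (median 567.5). The 4 ranges overlapped almost fully. The mate minus peer log2 difference was -0.15 ± 0.07 (edgeR p = 0.0408, adjusted p = 0.970). The lowest p for the interaction was that of Sp9 in the eccentric class, at a median of 103 CPM in female mate (79.7 to 133), 94.9 in female peer (72.6 to 131), 98.1 in male mate (77.4 to 126) and 129 in male peer animals (65.3 to 163). The log2 difference of the 2 pairing differences was 0.41 ± 0.17 (edgeR p = 0.0194, adjusted p = 1.00).

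In glia, Bcl11b in microglia had the lowest p for pairing, with medians of 92.1 CPM in female mate, 23.5 in female peer, 41.0 in male mate and 32.2 in male peer animals and ranges that overlapped (log2 difference 1.11 ± 0.42, edgeR p = 0.0114, adjusted p = 0.970). Meis2 in oligodendrocytes differed by 0.53 ± 0.21 (edgeR p = 0.0155, adjusted p = 0.970). Foxp1 in microglia had the lowest p for sex, female minus male 0.54 ± 0.23 (edgeR p = 0.0256, adjusted p = 0.949), with 56.7 to 197 CPM in female mate, 24.2 to 203 in female peer, 12.8 to 174 in male mate and 22.1 to 113 in male peer animals. Microglia had a median of 612 UMIs per nucleus.

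The gap between the D1 and D2 classes did not pass for any factor either. In edgeR, 0 of 10656 genes (0%) were called for a pairing difference and 0 (0%) for a sex difference of the gap, with 484 and 558 at an unadjusted p under 0.05; DESeq2 called 0 and 0. The nearest factor was Six3 for sex, at a difference of 0.20 ± 0.08 (edgeR p = 0.0168, adjusted p = 0.918).

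**Figure D5:**
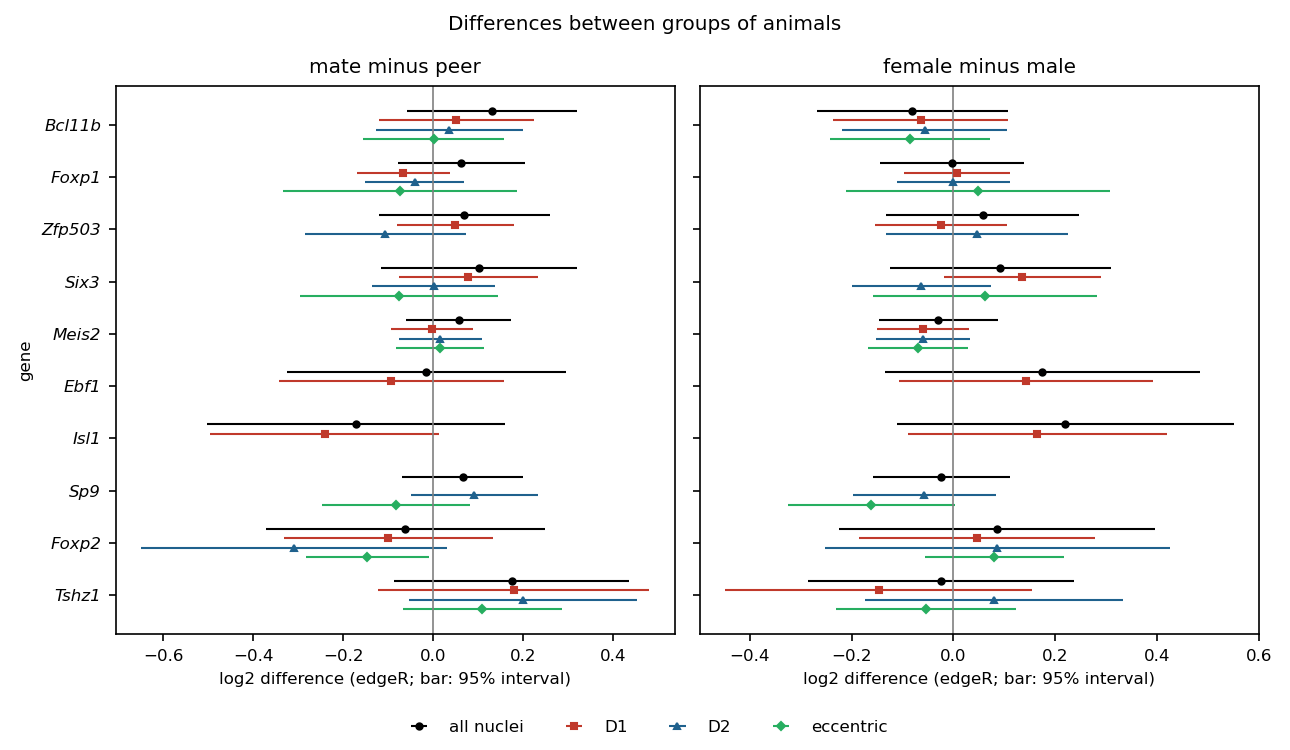
Log2 differences of each gene between groups of animals (mate minus peer, and female minus male; edgeR, bars are 95% intervals) over all nuclei and in the D1, D2 and eccentric classes. Genes under the filter on low counts in a class are not drawn. The drawn intervals of all genes but Foxp2 in the eccentric class for pairing reach 0, and that one has an adjusted p of 0.970.

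The genes with the most similar patterns were found by Pearson's r of log2(CPM + 5) over 53 clusters of at least 200 nuclei, among 10432 genes. Clusters share libraries and a clustering, so r is a description. For Sp9 these were Dlx2 (r = 0.82), Dlx1 (0.77) and Cdca7 (0.76), for Meis2 its relative Meis1 (0.82), Kcnh4 (0.81) and Pou3f4 (0.78), and for Foxp2 the 2 other factors Meis2 (0.74) and Tshz1 (0.73), and Lrp12 (0.73). Tshz1 was nearest to Zadh2 (0.81), Meis1 (0.79) and Foxp2. Six3 was near to Syndig1l (0.86) and to the spiny gene Ppp1r1b (0.84), Zfp503 to Wfs1 (0.86), Adcy5 (0.85) and Tnxb (0.84), Bcl11b to Akap5 (0.84), Kcnj4 (0.84) and Fbxl16 (0.84), and Foxp1 to Arpp19 (0.91), Baiap2 (0.90) and Mast3 (0.90). Ebf1 was nearest to Kcnj8 (0.78) and Lama1 (0.75), both highest in the vascular cluster, and Prkch (0.68). Isl1 was nearest to Pde1c (0.69), a gene without a symbol (0.63) and Glp1r (0.63). Over the 41 neuron clusters other than glutamate neurons, the most opposed pairs among the 10 were Isl1 with Sp9 (r = -0.66), Ebf1 with Sp9 (-0.64) and Sp9 with Zfp503 (-0.60).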

How the data were processed

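Nuclei were isolated separately from the frozen accumbens of each animal and sequenced as 10X Genomics libraries, per the labels' protocols. The authors deposited UMI counts per gene and nucleus, made with Cell Ranger 3.1.0 per the submitters' processing notes. The genome build, the annotation and whether intron reads were counted are not given in the sources used here. The members and lists were chosen with earlier results of these data known.

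From 194518 barcodes, 6375 under 500 UMIs (all in male mate 2) and 2148 above 5% mitochondrial UMIs were removed. A doublet score from simulated doublets, at 0.8% per 1000 barcodes, removed 7608 (4.09%) more. A median of 0.771% of the smaller library's barcode sequences recurred in another library over 780 pairs (highest 2.22%). Counts were normalised, 2000 variable genes without the 10 factors gave 30 principal components, and nuclei were clustered with Leiden (scanpy 1.11.5, leidenalg 0.10.2, Python 3.11.15) at resolution 1, with a second round within spiny, interneuron and immature families. A cluster of at least 100 nuclei was named from at least 3 markers at a log2 fold of 1 or more; this scoring was set after the clusters had been seen. The gates used Slc17a7 and Slc17a6 for glutamate neurons. Some named genes are not reported here.

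Counts were summed per animal and class (at least 20 nuclei, at least 6 animals per group) and tested with edgeR 4.0.16 in R 4.3.3 (TMM, quasi-likelihood, groups coded as pairing by sex, animal as block for gates and the gap). P-values were adjusted by Benjamini-Hochberg over all genes of a comparison (within classes, over all genes and classes jointly), with a threshold of 0.05. DESeq2 1.42.0 was an alternative. Scripts were tested on simulated data. Between groups, up to 3 factors with the lowest p per comparison were named; the 3 most alike genes per factor were taken among genes reaching 50 CPM in a cluster; of the wider list, up to 3 per neuron class at 20 CPM or more were named. Intervals of pooled levels cover counting error only.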

Additional observations from a re-analysis of the deposited data

Results flagged for a closer look

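In 6 of the 68 groups of animals checked, the highest or lowest animal stood far from the others. Only groups of 4 to 10 animals were checked, so larger groups, such as all mate animals of 1 sex, were left out. Chance gives about 1 in 20 for normally distributed values, which does not hold where most animals are at 0. Isl1 over all nuclei was 10.1 CPM in male peer 5, against 4.81 in the next of 10 male peer animals. That library had 89 Isl1 UMIs, 53 in the D1 class and 12 in cholinergic interneurons, and 0.900% glutamate neuron nuclei; the part of its makeup in the result was not tested. Isl1 in cholinergic interneurons was 78.7 CPM in male mate 2, against 31.1 in the next of 5 male mate animals; it rests on 3 UMIs, in a library with a median of 656 UMIs per nucleus. Six3 in cycling immature neurons was 34.6 CPM in female peer 2 and 50.8 CPM in male mate 10, with the other 3 animals of each group at 0. With the rest at 0, any UMI in 1 animal is flagged. Six3 in the eccentric class was 26.2 CPM in male peer 1, against 45.9 in the next lowest of 10. Sp9 in immature neurons was 245 CPM in female mate 9, against 788 in the next lowest of 7.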

How the results depend on the processing

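No factor was called between groups of animals under any alternative run. Without a filter on low counts, all genes called within classes came to 4 for pairing, 30 for sex and 3 for the interaction, and for the gap to 9 (pairing) and 11 (sex). In the gates without nuclei of the eccentric, cholinergic and vascular classes, an alternative added after seeing the data, Tshz1 was at -0.28 and Zfp503 at 0.00436 (adjusted p = 0.965). Bcl11b in the gates passed the threshold with doublets kept (-0.05), with nuclei of at least 1000 UMIs (-0.05) and without those 3 classes (-0.05); the cause was not tested. Of the 160 combinations of gene and class, 155 kept their category at Leiden resolution 2, 153 with the factors among the variable genes, 158 without male mate replicate 2, 159 without female peer replicate 1, 156 with doublets kept, 154 with a mean over nuclei and 133 with bounds of 33% and 5%. With nuclei of at least 1000 UMIs, 114 of the 130 pairs still ranked did, and both immature classes and microglia dropped out. None went from high to low or back. With the mean over nuclei, the spiny grades that moved were Ebf1 in the D1 class and Tshz1 in the D2 class, both to low, and Zfp503 in the D2 class, to intermediate. Class membership moved more: at Leiden resolution 2 the eccentric class held 10608 nuclei against 14957, and the D2 class 34237 against 28782. No paired analysis was run. Between animals of different groups the replicate numbers only name animals in accession order, and the labels' own numbers differ for every animal. The label numbers do run in consecutive twos, each a mate female with a mate male or 2 peers of 1 sex. The labels do not say that these animals lived together, and blocking by such twos was not tested. Depth limits the sparser factors: in the D1 class the variation from counting alone was 45.1% for Sp9, 29.7% for Isl1, 26.1% for Ebf1 and 24.9% for Tshz1, and Six3 varied between animals by 17.1%, against 16.7% from counting alone.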

Other observations

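Neuron clusters that stayed unnamed held further combinations, given as pooled levels over all their nuclei with Poisson 95% intervals. Cluster S15 (649 nuclei from 19 libraries, 21.7% of them from male mate 7, median 673 UMIs; led by Krt15, Prok2 and Fat4) had 373 CPM of Bcl11b (323 to 429), 188 of Foxp2 (153 to 229), 95.1 of Zfp503 and 42.9 of Isl1 (27.2 to 64.4). It had 44.8 CPM of Meis2 and no UMI of Sp9 or Six3, for which the interval reached 6.88 CPM. Bcl11b with Foxp2 and Isl1 at so little Meis2 was found in none of the 3 spiny classes. Without male mate 7 the levels were 398 CPM for Bcl11b, 198 for Foxp2 and 44.2 for Isl1.

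Cluster N7 (922 nuclei, led by Pax6 and Calb2) had 747 CPM of Meis2 (706 to 791), 117 of Sp9 (101 to 135) and 111 of Foxp2. Its Meis2 and Sp9 were below the means of immature neurons. Cluster N6 (939 nuclei, led by Gpr101, Gpr165 and Ano2) had 497 CPM of Meis2 (471 to 524), 80.1 of Foxp2, 63.0 of Sp9 and 19.6 of Isl1 (14.7 to 25.7). Cluster S14 (2295 nuclei), led by the activity-dependent genes Fosb, Npas4 and Nr4a3, stayed unnamed because it held markers of both the D1 and the D2 class. Pooled over such nuclei it had both Ebf1 (11.5 CPM, 8.76 to 14.8) and Sp9 (27.5 CPM, 23.2 to 32.4). Its Sp9 lay between the D1 and D2 class means.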
